A study of Mus musculus with 4 samples.

Results

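The tricarboxylic acid cycle enzymes examined here are 9 mitochondrial proteins encoded by Cs, Idh2, Idh3a, Ogdh, Dlst, Sucla2, Suclg1, Fh1 and Mdh2. They were taken by symbol from a deposited table of transcript levels, summed per symbol and ordered as the reactions follow each other. All 9 were found among 20622 protein-coding genes, and all 9 were among the 10689 genes averaging 1 FPKM or more, which are the genes compared. FPKM divides the fragments of a transcript by its length and by the size of the library, so that levels of different genes can be set side by side.

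The RNA came from mouse embryonic stem cells of strain 129/Ola in 4 lines with 1 library each. The control was the line e14tg2a with its fission genes intact, and the knockouts made in it were Dnm1l-/-, Fis1-/- and Mff-/-. Dnm1l encodes the dynamin-related GTPase that constricts mitochondria, and Fis1 and Mff encode proteins of the outer membrane that take part in fission. All lines, control included, were at passages 30 to 35 and grew in low-glucose medium with serum and leukemia inhibitory factor on a layer of mouse embryonic fibroblasts, so each library can hold feeder RNA. The sources used here do not say how many clones each line rests on. With 1 library per line no test between lines was possible, and every difference below describes these libraries only.

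The cycle oxidises acetyl groups in the mitochondrial matrix and hands the electrons to the respiratory chain as NADH and reduced flavin. Citrate synthase joins acetyl-CoA to oxaloacetate, isocitrate and 2-oxoglutarate are then oxidised with loss of carbon dioxide, succinyl-CoA ligase yields a nucleoside triphosphate, and succinate is turned back into oxaloacetate through fumarate and malate. In embryonic stem cells the cycle also supplies citrate for lipids and acetylation, and its 2-oxoglutarate is a substrate of the enzymes that demethylate DNA and histones.

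The labels were checked against the targeted genes and cell markers. Dnm1l went from 35.0 FPKM in the control library to 22.9 in its own knockout, Fis1 from 103 to 56.2 and Mff from 28.9 to 11.8. In each case the targeted gene was lowest in its own knockout and still present. All 10 markers of pluripotent stem cells were found in every library, with a summed level of 5075 to 8997 FPKM, highest in Mff-/-. Most of this sum came from Dppa5a. In Mff-/- 7 of the 10 were above control, against 44.5% of compared genes. Nanog and Esrrb were lowest in Mff-/-, at 178 and 100 FPKM against 221 and 112 FPKM in control. In each knockout 2 of the 10 were at least 1.5-fold from control. Of compared genes 13.7%, 12.5% and 23.9% were in Dnm1l-/-, Fis1-/- and Mff-/-. In Dnm1l-/- and Fis1-/- Nanog was higher, at 437 and 389 FPKM, and Utf1 lower, at 118 and 138 FPKM against 224 FPKM in control. In Mff-/- Dppa5a and Utf1 were higher, Utf1 at 451 FPKM. Of 12 fibroblast markers 4, 7 and 10 were above control in Dnm1l-/-, Fis1-/- and Mff-/-, where 51.3%, 50.8% and 44.5% of compared genes were. Only 4 of the 12 averaged 1 FPKM or more, and 3 of these 4 were above control in Mff-/-. The other markers averaged less than 1 FPKM. Among them Twist2 and Col5a2 were at 1.97 and 1.17 FPKM in Mff-/-, against 0.495 and 0.557 FPKM in control. Dcn was at 1.14 FPKM in Fis1-/- against 0.61 FPKM in control. The rest stayed below 1 FPKM in every library. None of the 12 markers was at 0 in any library. Their sum was 117 FPKM in control, then 101, 113 and 74.5 FPKM in Dnm1l-/-, Fis1-/- and Mff-/-, most of it from Fn1, and without Fn1 it was 10.4, 9.7, 10.3 and 24.4 FPKM. The part of feeder RNA in the Mff-/- values of the cycle genes was not tested, and in bulk RNA fewer cells of a type and less RNA per cell cannot be told apart.

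The level of most cycle transcripts in the Dnm1l-/- and Fis1-/- libraries lay close to control, and Idh2 stood apart in the Mff-/- library. Idh2, the mitochondrial isocitrate dehydrogenase that makes NADPH, measured 128 FPKM in the control library and 53.8 FPKM in Mff-/-, 42% of control. It was the only one of the 9 genes at least 1.5-fold from control in any knockout with the values as deposited. Mdh2, the malate dehydrogenase of the matrix, measured 277 FPKM in the control library and 360 FPKM in Mff-/-, 1.3 times control. The beta subunits of succinyl-CoA ligase also parted: Sucla2 stayed between 28.3 and 35.0 FPKM in the 4 libraries, while Suclg2, which is not among the 9, went from 37.1 FPKM in control to 22.2, 22.6 and 16.3 FPKM in Dnm1l-/-, Fis1-/- and Mff-/-.

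The 2 promoters shown next belong to the members that lay farthest from control in Mff-/- on either side, Mdh2 above it and Idh2 below it. Each is the stretch of 250 bases before the annotated start, from RefSeq on GRCm38.p6, which is the assembly of mm10. The start used is that of the transcript in the deposited table, and for Idh2 the RefSeq gene reaches farther upstream, to position 80118608. It is written on the strand of the gene, Mdh2 at chr5:135778399-135778648 (plus strand) and Idh2 at chr7:80115351-80115600 (minus strand). Capitals mark every match, on either strand, to 7 short motifs, which are TCTCGCGAGA, the NRF1 motif, CCGGAAG (bound by ETS factors), AAGGTCA (bound by estrogen-related receptors), TGACGTCA (bound by CREB factors), CCAAT and GGGCGG (bound by SP factors).
Mdh2: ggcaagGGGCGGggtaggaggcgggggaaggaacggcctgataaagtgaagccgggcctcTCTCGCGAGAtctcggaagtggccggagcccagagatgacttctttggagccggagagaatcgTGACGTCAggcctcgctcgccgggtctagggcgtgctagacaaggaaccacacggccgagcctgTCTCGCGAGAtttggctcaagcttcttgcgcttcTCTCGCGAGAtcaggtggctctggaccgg
Idh2: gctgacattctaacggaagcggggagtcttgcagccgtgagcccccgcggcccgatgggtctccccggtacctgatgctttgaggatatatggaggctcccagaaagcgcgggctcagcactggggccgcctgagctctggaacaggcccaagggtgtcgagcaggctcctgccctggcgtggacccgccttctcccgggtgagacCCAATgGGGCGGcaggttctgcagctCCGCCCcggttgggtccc

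The Mdh2 window holds the palindrome TCTCGCGAGA 3 times, with its first base 190, 63 and 29 bases before the start. This motif was added to the search after it had been seen in the window. It occurs in 0.39% of the 32851 promoter windows of this length, and 2 of them hold it at least 3 times. TGACGTCA begins 127 bases before the Mdh2 start and occurs in 1.55% of windows. The Idh2 window holds CCAAT, found in 33.8% of windows, 44 bases before the start. It also holds GGGCGG on either strand at 38 and 18 bases, a motif found in 32.7% of windows, and none of the other 5 motifs. Promoter windows were given for 8 of the 9 members, all but Idh3a, and the NRF1 motif, found in 3.74% of all windows, was in 1 of the 8, that of Sucla2. GGGCGG was in 7 of the 8, CCAAT in 4 and TGACGTCA in 2 (Ogdh and Mdh2). CCGGAAG and AAGGTCA, found in 6.91% and 4.08% of all windows, were in 0 of the 8. A match is a description of the letters only, and neither binding nor promoter activity was measured.

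The members differ widely in level. In control the order from high to low was Mdh2, Idh2, Cs, Suclg1, Idh3a, Fh1, Dlst, Sucla2 and Ogdh, from 277 to 16.8 FPKM. Mdh2 held rank 250 among protein-coding genes in control, and between rank 246 and rank 255 in the 4 libraries. Even the lowest member, Ogdh, was above 63.6% of the compared genes in control. An estimated 2109 to 16496 fragments stood behind each member's value in a library, and the 95% counting intervals of the log2 differences were at most 0.084 wide on either side. These intervals cover counting error only, and the spread between cultures was not measured. The plot of the 9 levels by library shows the ranking and the low Idh2 value of Mff-/-.

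**Figure D1:**
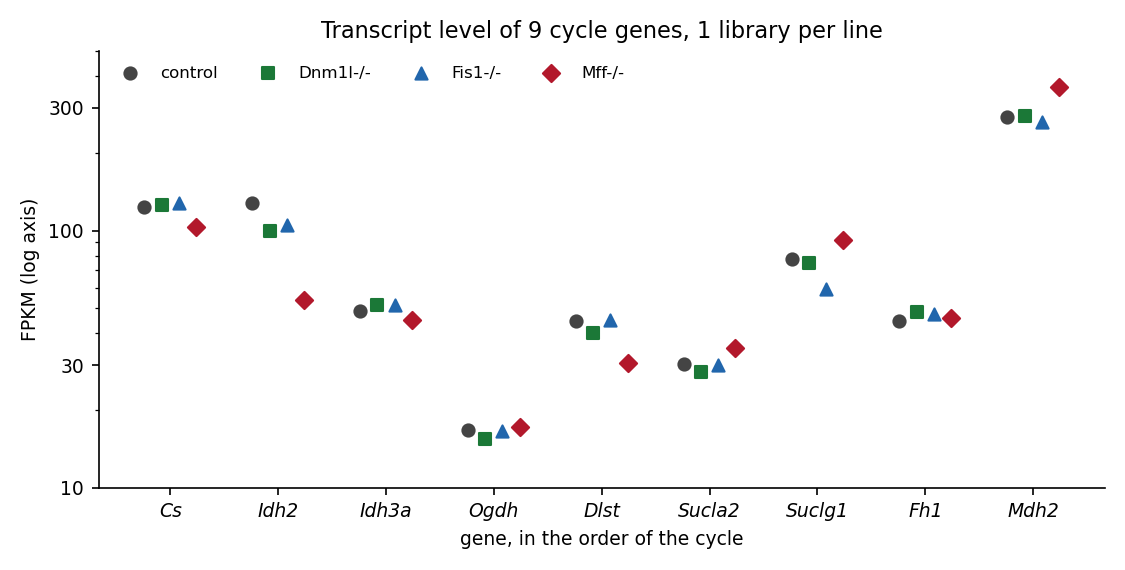
Transcript level in FPKM (log axis) of the 9 cycle genes, in the order of the cycle, with 1 point per library and no replicates. Idh2 lies at 53.8 FPKM in Mff-/- against 100 to 128 FPKM in the other libraries, and Mdh2 is the most abundant member in every library.

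Entry of acetyl-CoA is catalysed by citrate synthase, the product of Cs on chromosome 10 (128337832 to 128362479). Cs measured 124 FPKM in control, then 126, 128 and 103 in Dnm1l-/-, Fis1-/- and Mff-/-. The first 3 libraries were close together and Mff-/- was the lowest, with a log2 difference from control of -0.26 on the log2(FPKM + 1) scale used throughout. The related gene Csl was listed at 0.0229 FPKM or less in every library, so almost all of the citrate synthase signal was assigned to Cs.

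Isocitrate is oxidised by different enzymes. Idh2, on chromosome 7 (80094847 to 80115350), encodes the NADP-dependent one, and Idh3a, on chromosome 9 (54586511 to 54604662), the catalytic subunit of the NAD-dependent one. Idh2 measured 128 FPKM in control, then 100, 105 and 53.8 in Dnm1l-/-, Fis1-/- and Mff-/-. It was below control in all 3 knockouts, with log2 differences of -0.35, -0.28 and -1.24 in the same order. The counting interval of the last ran from -1.30 to -1.18. Idh3a measured 48.5 FPKM in control, then 51.4, 51.2 and 45.1 in Dnm1l-/-, Fis1-/- and Mff-/-. Its levels stayed within 13.8% of the lowest, and the ratio of Idh2 to Idh3a was 2.64 in control, then 1.96, 2.06 and 1.19 in Dnm1l-/-, Fis1-/- and Mff-/-. A ratio within a library does not depend on how the library was scaled.

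Beside Idh2 on chromosome 7, Zfp710 and Sema4b, the nearest compared genes on either side, differed from control in Mff-/- by -0.09 and -0.00. In control and Mff-/- they were at 20.3 and 18.9 FPKM and at 24.1 and 24.1 FPKM. The median difference of the 857 compared genes of chromosome 7 was 0.01. The low Idh2 value in Mff-/- was not shared by these neighbours.

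The 2-oxoglutarate dehydrogenase complex is represented by Ogdh, its decarboxylating subunit, and Dlst, its succinyltransferase core. Ogdh, on chromosome 11 (6291597 to 6359094), measured 16.8 FPKM in control, then 15.5, 16.7 and 17.2 in Dnm1l-/-, Fis1-/- and Mff-/-. Dlst, on chromosome 12 (85110833 to 85134091), was at 44.4, 40, 45 and 30.7 FPKM in the same order. Mff-/- was the lowest library for Dlst and the highest for Ogdh. The log2 difference of Dlst in Mff-/- was -0.52, just short of the 0.58 that stands for 1.5-fold, and the ratio of Ogdh to Dlst was 0.558 there against 0.371 to 0.388 in the other libraries.

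Ogdh was the only member with more than 1 transcript in the table. Of its 5 transcripts, NM_010956 held 87.8% of the Ogdh level in control, then 92.5%, 91% and 90.4% in Dnm1l-/-, Fis1-/- and Mff-/-. NM_001252288, which begins downstream at 6292558, held 9.87%, 5.57%, 7.6% and 6.71% in the same order, at 1.65, 0.864, 1.27 and 1.15 FPKM. The other 3 transcripts start with NM_010956 and were at 0.499 FPKM or less in every library. One main transcript thus carried the gene in each line, and the division of fragments among overlapping transcripts is an estimate.

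Succinyl-CoA ligase pairs the alpha subunit of Suclg1 with 1 of the beta subunits. Sucla2 gives the form that makes ATP and Suclg2 the form that makes GTP. Suclg1, on chromosome 6 (73248505 to 73276907), measured 77.5 FPKM in control, then 74.6, 59.1 and 91.5 in Dnm1l-/-, Fis1-/- and Mff-/-. Fis1-/- was the lowest library, with a log2 difference of -0.39 from control and a counting interval from -0.45 to -0.32, and Mff-/- was the highest. Suclg1 was also the member on which Dnm1l-/- and Fis1-/- differed most from each other, by 0.33.

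Sucla2, on chromosome 14 (73552786 to 73596142), measured 30.3 FPKM in control, then 28.3, 30.1 and 35.0 in Dnm1l-/-, Fis1-/- and Mff-/-. The ratio of Sucla2 to Suclg2 was 0.818 in control, where the GTP-forming subunit was the more abundant transcript. It was 1.28 in Dnm1l-/-, 1.33 in Fis1-/- and 2.14 in Mff-/-, so that the ATP-forming subunit was the more abundant one in all 3 knockouts. Suclg2 differed from control by -0.72, -0.69 and -1.13 in the same order. It was 1 of 101 compared genes, 0.945% of them, at least 1.5-fold below control in all 3 knockouts, which share that control library. The median difference of the 472 compared genes of chromosome 6, which carries both Suclg1 and Suclg2, was -0.13, -0.14 and -0.23. The nearest compared gene below Suclg2 on that chromosome, Kbtbd8, differed by -0.48, -0.30 and -0.26, and Fam19a4, the nearest above it, by -1.20, -1.14 and -0.53. The next compared genes outward, Lrig1 and Eogt, differed in Mff-/- by -1.26 and -1.11, close to Suclg2, and by -0.60 and -0.17 in Dnm1l-/- and -0.28 and -0.08 in Fis1-/-. The part that position on the chromosome has in the Suclg2 values was not tested.

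**Figure D2:**
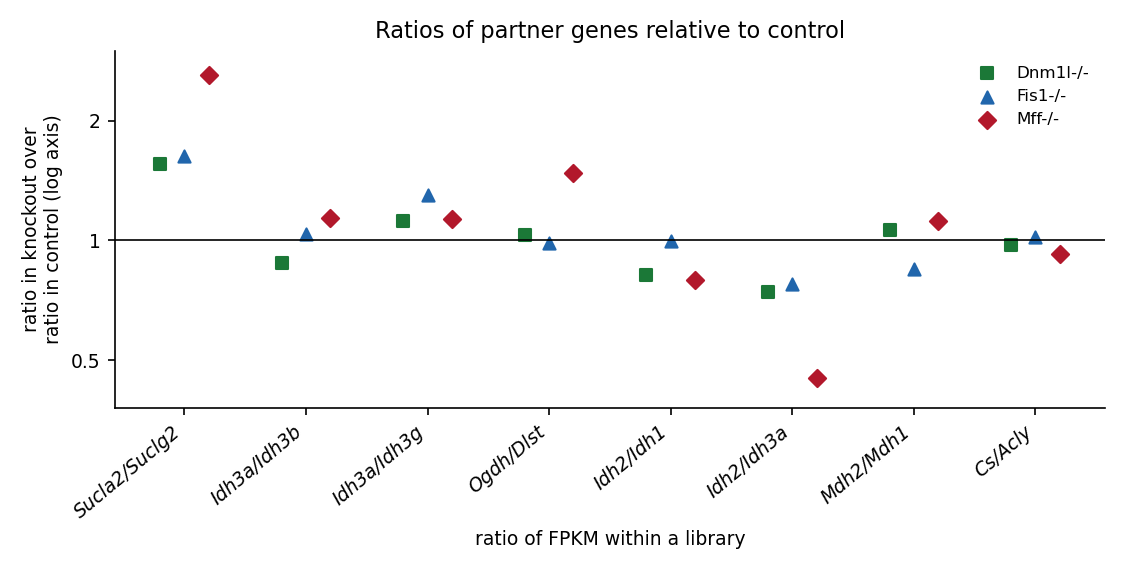
Ratio of FPKM of 2 genes within a library, divided by the same ratio in control (log axis), 1 point per knockout library. The Sucla2/Suclg2 ratio lies above 1 in all 3 knockouts, up to 2.61, and the Idh2/Idh3a ratio below 1, down to 0.451.

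The last steps of the cycle are catalysed by fumarate hydratase, from Fh1, and by malate dehydrogenase, from Mdh2. Fh1, on chromosome 1 (175601378 to 175625635), measured 44.6 FPKM in control, then 48.3, 47.4 and 45.9 in Dnm1l-/-, Fis1-/- and Mff-/-. It was the steadiest member, with its highest library 8.41% above its lowest. Mdh2, on chromosome 5 (135778649 to 135790386), measured 277 FPKM in control, then 278, 264 and 360 in Dnm1l-/-, Fis1-/- and Mff-/-. The first 3 libraries lay together and Mff-/- above them, with a log2 difference of 0.38 and a counting interval from 0.35 to 0.41. The cytosolic malate dehydrogenase gene Mdh1 gave 92.8 FPKM in the control library and 108 in Mff-/-, and the Mdh2/Mdh1 ratio ran from 2.53 in Fis1-/- to 3.33 in Mff-/-.

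In Dnm1l-/- against control, 4 of the 9 members were above control and 5 below, where 51.3% of all compared genes were above, with differences from -0.35 (Idh2) to 0.11 (Fh1). None reached 1.5-fold, where 13.7% of all compared genes did, and the median of the 9 was -0.06 beside 0.01 for all compared genes. Within 0.1 of control lay 5 of the 9, against 25.8% of compared genes. All members are well above 10 FPKM, and among the 5375 genes with a mean of at least 10 FPKM the share beyond 1.5-fold was 11.1%. The summed level of the 9 was 791 FPKM in control and 763 FPKM in Dnm1l-/-.

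In Fis1-/- the members ranged from -0.39 (Suclg1) to 0.09 (Fh1), 4 above control and 5 below, where 50.8% of compared genes were above. None reached 1.5-fold, against 12.5% of compared genes and 10.1% of those at 10 FPKM or more. The median was -0.00 beside 0.01 for all compared genes, and 7 of the 9 lay within 0.1 of control, against 24.8% of compared genes. The summed level was 747 FPKM. Suclg1, Idh2 and Mdh2 were at -0.39, -0.28 and -0.07, and the other 6 members lay between -0.01 and 0.09. Since several members lie next to 0, rescaling to the mean FPKM total left 6 above control and 3 below.

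In Mff-/- the members spread more widely, from -1.24 (Idh2) to 0.38 (Mdh2), 5 above control and 4 below, where 44.5% of compared genes were above. Idh2 alone was at least 1.5-fold from control, 1 of 9, where 23.9% of compared genes and 23.5% of those at 10 FPKM or more were. It was also 2-fold lower, as were 2.89% of compared genes. The median was 0.03 beside -0.07 for all compared genes, and 2 of the 9 lay within 0.1 of control against 16.1% of compared genes. The summed level, 783 FPKM, was close to the 791 FPKM of control. Without Idh2 the other 8 summed to 663 FPKM in control and 729 FPKM in Mff-/-, and without Mdh2 the 8 remaining genes summed to 514 and 423 FPKM.

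The deposited FPKM values add up to 707746 in Mff-/- and to 597921 to 623303 in the other libraries, and scaling moved the Mff-/- values. When each library was rescaled to the mean of these totals, all compared genes moved by -0.15 at the median, and of those 1.5-fold from control the higher and lower ones went from 1155 and 1402 to 666 and 2297. Idh2 was then at -1.42, Dlst passed 1.5-fold at -0.70, and Mdh2 stayed above control at 0.20. Ogdh and Fh1 changed side, from 0.03 and 0.04 to -0.14 each, and Sucla2 and Suclg1 came to 0.02 and 0.05. The differences of Idh2 and Mdh2 kept their sign, and the count of members above control went from 5 to 3. Ratios between members are free of this choice.

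**Figure D3:**
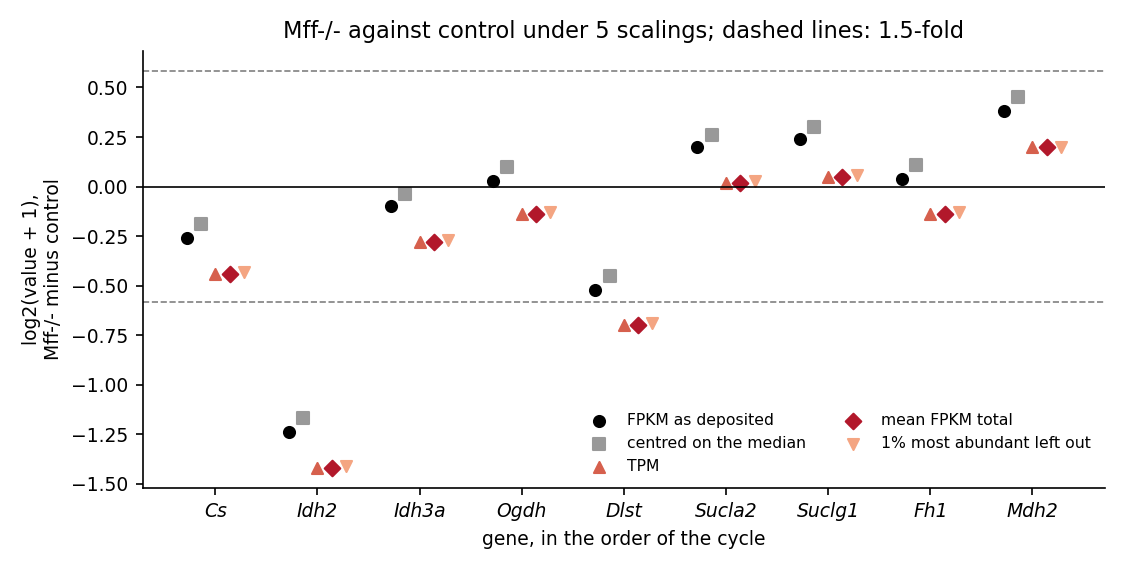
Difference of Mff-/- from control on the log2(value + 1) scale for the 9 cycle genes under 5 scalings of the same 2 libraries. Idh2 lies below the 1.5-fold line under each scaling, Dlst under 3 of them, and Mdh2 lies above 0 under each. TPM and the mean FPKM total divide by the same library totals and are not separate alternatives.

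Differences in Mff-/- also ran with transcript length across the compared genes (Spearman -0.46, over genes of the same libraries). Genes with transcripts under 1500 bases had a median difference of 0.34 in Mff-/-, those of 1500 to under 3000 bases -0.00, and those of 3000 bases or more -0.27. Mdh2 and Suclg1, with 1282 and 1392 bases, are in the first class and were at 0.38 and 0.24. Idh2, with 1702 bases, is in the middle class together with Fh1, Sucla2, Idh3a, Dlst and Cs. Ogdh, with 6615 bases, is in the longest class and was at 0.03. Suclg2, with 3413 bases, is also in that class and was at -1.13, while Sucla2 has 2108 bases. A ratio within a library does not remove a trend with length. In Dnm1l-/- and Fis1-/- the differences ran with GC content instead (Spearman -0.33 and -0.40). The median GC content of the member transcripts, 50.4%, was near the 50.7% of compared genes. Idh2 and Mdh2 had the highest GC content of the members, 55.4% each. In Dnm1l-/- and Fis1-/- Idh2 was at -0.35 and -0.28 and Mdh2 at 0.01 and -0.07. The part of length and GC content in the member values, in Suclg2 and in the ratios was not tested.

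Set against each other, the Dnm1l-/- and Fis1-/- libraries differed for the members by -0.17 (Dlst) to 0.33 (Suclg1). None of the 9 reached 1.5-fold between them, and 2.39% of compared genes did. Mff-/- differed from Dnm1l-/- by -0.89 for Idh2 and by 0.37 for Mdh2, and from Fis1-/- by -0.96 and 0.45. Suclg1 was also 1.5-fold or more higher in Mff-/- than in Fis1-/-, by 0.62. Of compared genes, 33.7% were at least 1.5-fold apart between Mff-/- and Dnm1l-/- and 35.2% between Mff-/- and Fis1-/-.

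Further genes of the cycle, 8 in number, were Idh3b, Idh3g, Dld, Suclg2, Sdha, Sdhb, Sdhc and Sdhd. In Dnm1l-/- and Fis1-/- only Suclg2 reached 1.5-fold, 1 of 8 in each, where 7.26% and 6.94% of compared genes were that much lower. The medians of the 8 were -0.07 and -0.11. In Mff-/- 7 of these 8 were below control, with a median of -0.28, and Suclg2 and Sdha were at least 1.5-fold lower, 2 of 8 against 13.1% of compared genes. Rescaled to the mean total, Sdhb joined them at -0.59, where 2297 of 10697 compared genes were that much lower. Centred on the median of compared genes, Sdha came to -0.54. Sdhd, a membrane anchor of succinate dehydrogenase, was the one above control, at 106 and 136 FPKM. Sdha, its flavin-binding subunit, measured 82.4 FPKM in control, then 80.3, 82.3 and 53.8 in Dnm1l-/-, Fis1-/- and Mff-/-.

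Sdhb, the iron-sulfur subunit, measured 126 FPKM in control, then 119, 108 and 94.8 in Dnm1l-/-, Fis1-/- and Mff-/-, lowest in Mff-/-. The second membrane anchor, Sdhc, was lower in Dnm1l-/- and Fis1-/-, at 77.1 and 76.9 FPKM against 102 in control and 92.8 in Mff-/-. For the regulatory subunits of the NAD-dependent isocitrate dehydrogenase, Idh3b and Idh3g, the levels were 79.9 and 107 FPKM in control and 65.5 and 88.3 FPKM in Mff-/-. Dld, the lipoamide dehydrogenase shared with other complexes, stayed between 31.4 and 34.3 FPKM. In the plot of differences in cycle order, the values of Mff-/- above 0 are those of Ogdh, Sucla2, Suclg1, Sdhd, Fh1 and Mdh2, of which Ogdh and Fh1 change side on rescaling.

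**Figure D4:**
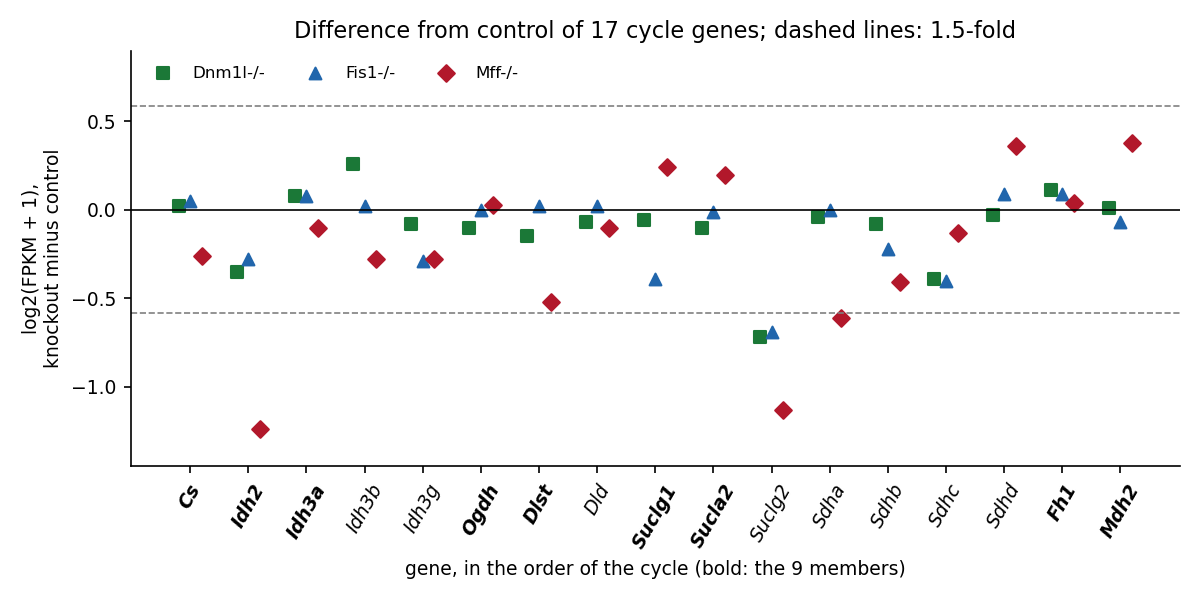
Difference from control on the log2(FPKM + 1) scale of 17 cycle genes in 3 knockout libraries, with members in bold and dashed lines at 1.5-fold. Idh2 and Suclg2 lie lowest in Mff-/-, at -1.24 and -1.13, and Suclg2 lies below the lower line in each knockout.

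Of relatives of the cycle enzymes, both compared paralogs and 2 of 6 cytosolic counterparts were at least 1.5-fold lower in Mff-/-, where 13.1% of compared genes were, and none was that much higher. Ogdhl, a paralog of Ogdh, measured 34.7 FPKM in control, then 34.6, 30.8 and 18.3 in Dnm1l-/-, Fis1-/- and Mff-/-, so that the paralog was more abundant than Ogdh in control and close to it in Mff-/-. Dhtkd1, of the 2-oxoadipate dehydrogenase of lysine breakdown, gave 4.74 FPKM in the control library and 1.16 in Mff-/-. Idh1, the cytosolic NADP-dependent isocitrate dehydrogenase, measured 36.3 FPKM in control, then 34.7, 30.0 and 19.1 in Dnm1l-/-, Fis1-/- and Mff-/-. Idh2 and Idh1 were thus both lowest in Mff-/-, and their ratio moved less than either level, from 3.53 in control to 2.81. Me1, the cytosolic malic enzyme and likewise a source of NADPH, gave 9.18 FPKM in the control library and 3.21 in Mff-/-. The other 4 of 6 cytosolic counterparts (Aco1, Mdh1, Acly and Got1) were within 1.5-fold of control in every knockout.

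Among 14 genes for the entry of pyruvate, Pcx, the pyruvate carboxylase that refills oxaloacetate, was lower in all 3 knockouts. It measured 23.9 FPKM in control, then 12.0, 14.3 and 5.44 in Dnm1l-/-, Fis1-/- and Mff-/-. Like Suclg2, Pcx was among the 101 compared genes, 0.945% of them, at least 1.5-fold below control in all 3 knockouts. The 3 knockouts share that control library. No other gene of this group reached 1.5-fold on the log2(FPKM + 1) scale in Dnm1l-/- or Fis1-/-. That is 1 of 14 lower in each, where 7.26% and 6.94% of compared genes were. In Mff-/- 4 of the 14 were at least 1.5-fold lower and 1 higher, against 13.1% and 10.8% of compared genes. The higher one was the kinase gene Pdk2, at 1.11 FPKM in the control library and 2.24 in Mff-/-. Rescaled to the mean total, 5 were lower, with Pdk1 added, and 0 higher, where 2297 and 666 of 10697 compared genes were. Besides Pcx, the lower ones as deposited were the pyruvate dehydrogenase kinase gene Pdk4 (4.09 FPKM in the control library and 1.54 in Mff-/-), the phosphatase gene Pdp1 (2.75 and 1.38) and its regulatory subunit gene Pdpr (1.46 and 0.354). The pyruvate dehydrogenase subunits Pdha1 and Pdhb were at 102 and 149 FPKM in control and 85.5 and 132 FPKM in Mff-/-.

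Of 6 compared genes for the entry of glutamine and aspartate, the glutamine transporter gene Slc1a5 was lower in 2 lines, at 41.3 FPKM in control, then 21.8, 21.2 and 46.2 in Dnm1l-/-, Fis1-/- and Mff-/-. Got2, the mitochondrial aspartate aminotransferase, was below control in each knockout, at 90.4, 62.2, 64.5 and 57.7 FPKM in the same order, and past 1.5-fold in Mff-/- alone, at -0.64 (-0.57 when centred on the median). In Mff-/- it was the 1 of the 6 at least 1.5-fold lower, with 0 higher, against 13.1% and 10.8% of compared genes. After rescaling to the mean total 3 of the 6 were lower, as were 2297 of 10697 compared genes. Gpt2, an alanine aminotransferase, measured 36.1 FPKM in control, then 29.3, 21.6 and 25.5 in Dnm1l-/-, Fis1-/- and Mff-/-. In Dnm1l-/- 1 of the 6, Slc1a5, was at least 1.5-fold lower. In Fis1-/- 2 of the 6 were, Slc1a5 and Gpt2, and 0 were higher in either line. Of compared genes 7.26% and 6.94% were that much lower in Dnm1l-/- and Fis1-/-. Got2 and Gpt2 both lie on chromosome 8, whose 594 compared genes had the lowest medians of any chromosome, -0.30, -0.29 and -0.33, beside -0.53, -0.48 and -0.64 for Got2. The part of the chromosome in their values was not tested. The aspartate-glutamate carriers of the inner membrane parted in Mff-/-, with Slc25a12 at 13.0 FPKM in the control library and 21.1 in Mff-/- and Slc25a13 at 31.3 and 16.2. In Dnm1l-/- and Fis1-/- both were above control, Slc25a12 at 19.8 and 21.4 FPKM and Slc25a13 at 52.1 and 44.1. Rescaled to the mean total, the Mff-/- difference of Slc25a12 went from 0.66 to 0.48, below 1.5-fold.

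The lipoyl group that Dlst carries and the cofactor that Ogdh binds come from other pathways. In Mff-/- 3 of 6 genes for these cofactors were at least 1.5-fold higher and 0 lower, against 10.8% and 13.1% of compared genes, with a median of 0.55 (0.39 rescaled to the mean total). They were the lipoate synthase gene Lias (16.3 FPKM in the control library and 30.9 in Mff-/-), the lipoyl transferase gene Lipt2 (2.61 and 6.07) and Glrx5, a gene of iron-sulfur cluster transfer (31.6 and 53.0). Rescaled to the mean total, Lias and Lipt2 stayed past 1.5-fold at 0.71 and 0.82 and Glrx5 came to 0.55. Of 10697 compared genes 666 were then that much higher. In Fis1-/- Lipt2 was at 1.34 FPKM, the 1 of the 6 at least 1.5-fold lower, where 6.94% of compared genes were. Of 4 assembly factors of succinate dehydrogenase, 2 were at least 1.5-fold higher in Mff-/- and 0 lower, against 10.8% and 13.1% of compared genes. These 2, Sdhaf1 and Sdhaf4, were at 10.4 and 12.0 FPKM in control and 17.9 and 21.4 FPKM in Mff-/-. Rescaled to the mean total, Sdhaf1 came to 0.55 and Sdhaf4 stayed past 1.5-fold at 0.62. Sdhaf3 gave 12.3 FPKM in the control library and 7.78 in Dnm1l-/-. It was the 1 of the 4 at least 1.5-fold lower there, where 7.26% of compared genes were. The part of transcript length in the Mff-/- values of these cofactor and assembly genes was not tested.

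**Figure D5:**
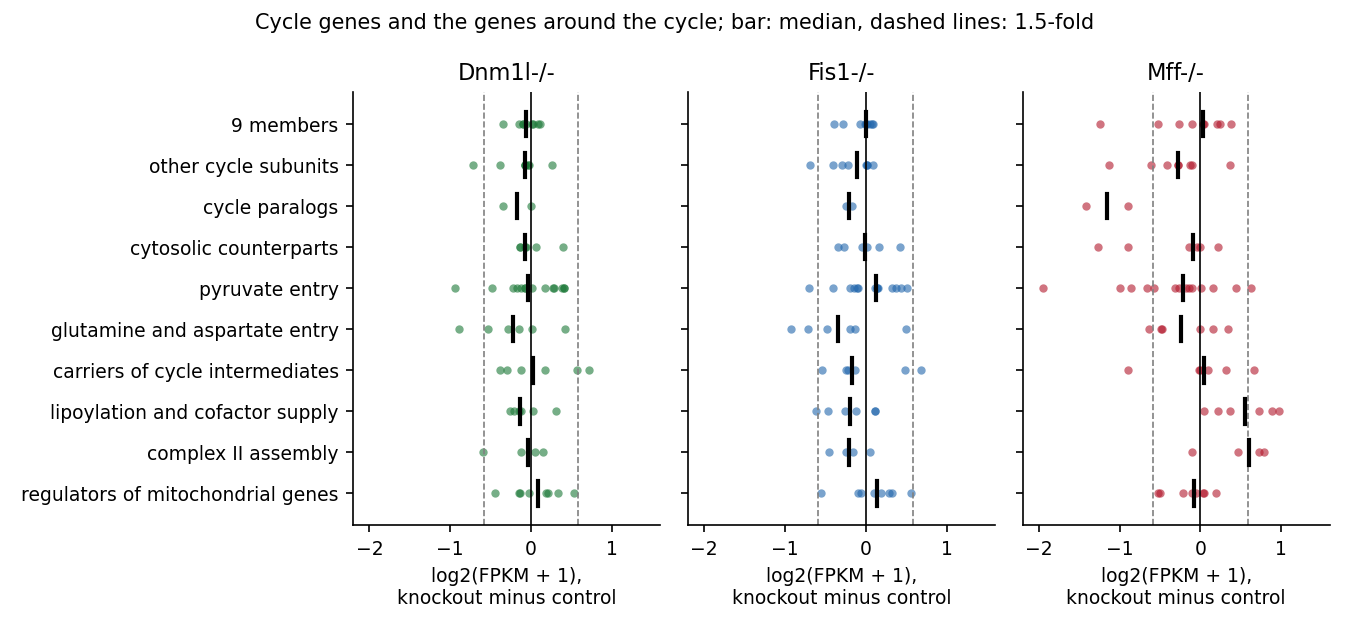
Difference from control on the log2(FPKM + 1) scale, 1 point per compared gene and 1 panel per knockout library, for the 9 members and 9 lists of genes around the cycle. Black bars are medians and dashed lines stand at 1.5-fold; in Mff-/- the cofactor list has a median of 0.55 and the further cycle subunits one of -0.28.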

How the data were processed

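RNA-seq of 4 mouse embryonic stem cell lines, 1 library each, was analysed, with groups taken from the genotype labels. The authors deposited 1 table of FPKM values for 33818 RefSeq transcripts, with transcript lengths in bases, per the file headers. The submitters' processing notes list STAR 2.5.2b, StringTie 1.3.3b, FastQC 0.11.5, R 3.6.1 and the build mm10, and do not tie a tool to a step. The kit is named as stranded in the series' design text only, and the sources used here do not say whether quantification used strand. The column for Dnm1l bears the protein name Drp1 and was matched by that synonym. FPKM scales a library to its own fragments, so abundant transcripts can shift all others.

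FPKM was summed over the transcripts of a gene, and 552 of the 565 transcripts lacking a symbol took one from RefSeq. Genes with a coding transcript and a mean of at least 1 FPKM were compared as log2(FPKM + 1), knockout minus control, which understates differences of low genes. Counts use 1.5-fold and 2-fold. Starts are counted from 1, adding 1 to the table's values. Sdhaf3 and Sdhaf4 are listed under older symbols and were matched by gene identifier. Depth was estimated from the spacing of low FPKM values in single-transcript genes of at least 3000 bases, and came to 37800000, 35300000, 36100000 and 35700000 fragments in control, Dnm1l-/-, Fis1-/- and Mff-/-. Of these low values, 89.7% to 92.4% lay within 0.15 of a whole number. No count model was used, since fragments are divided among overlapping transcripts, and the fragments behind each value are estimates.

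All 9 members and 8 further cycle genes are named, and from the other lists genes at least 1.5-fold from control in any knockout, at most 4 per list and knockout. Further genes named for context, such as Pdha1, Pdhb and the chromosomal neighbours, were chosen after their values were seen, as were the promoters printed. The members and lists were chosen with earlier results of these data known. A few genes of the lists are not reported here and are left out of list counts and medians. Alternatives were another pseudocount, no filter on low values, 4 other scalings, the most abundant transcript and coding transcripts only. Of the scalings, TPM and the mean FPKM total divide by the same library totals. Python 3.11.15, pandas 2.3.3, numpy 2.4.6, scipy 1.17.1 and matplotlib 3.10.9 were used.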

Additional observations from a re-analysis of the deposited data

How the results depend on the processing

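No paired analysis was possible because each group has 1 library. For the 9 cycle genes, the median stayed between -0.06 and -0.03 in Dnm1l-/- and between -0.01 and 0.05 in Fis1-/- under the alternatives. In these 2 knockouts no member reached 1.5-fold under any alternative run. In Mff-/- the median of 0.03 became -0.14 with TPM, -0.14 with rescaling to the mean FPKM total, -0.13 when rescaled without the top 1% of genes by level, and 0.10 when centred on the median of all compared genes. The number of members at 1.5-fold went from 1 to 2, Idh2 and Dlst, under the first 3 of these. Of compared genes, 30.4%, 27.7% and 27.7% were that far from control under these 3, and 23.9% as deposited. TPM and the mean FPKM total divide by the same library totals and differ only through the pseudocount, so they count as 1 alternative for the members. The 2-fold lower Idh2 value kept its direction and stayed past 1.5-fold under every alternative.

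Of all compared genes, 1460, 1335 and 2557 were at least 1.5-fold from control in Dnm1l-/-, Fis1-/- and Mff-/-. With a mean of at least 10 FPKM required, an alternative chosen after seeing the data, there were 597, 542 and 1264, fewer genes being compared. Of the 2557 genes in Mff-/- 45.2% were higher, against 57.0% of the 1264, 23.1% with TPM, 22.5% with the mean total, 22.7% without the top 1% and 55.7% when centred on the median. Of 189 single-gene values under alternatives, 148 stayed within counting error, 41 moved and 0 reversed a 1.5-fold difference. The 148 include values that could not move, since every member but Ogdh has 1 transcript and the transcript alternatives return the same value. TPM and the mean FPKM total are both counted. In Mff-/- every member moved under these and under the scaling without the top 1%. Among members only Idh2 in Mff-/- was 1.5-fold from control as deposited, so only its values could be counted as reversed. Smaller differences that changed sign were not counted as such. Of 64 ratio values, 52 stayed within counting error and 12 moved, all with the most abundant transcript alone. Cs/Acly in control was then 3.22 in place of 1.79. The 12 are the ratios with Ogdh, Idh1 or Acly, which have more than 1 transcript. Ratios of genes with 1 transcript could not change, and coding transcripts alone left every ratio as it was. The 52 therefore do not measure stability. Depth does not limit the members, and the missing replicates do.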

Other observations

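Genes that regulate mitochondrial transcripts were compared as well, and 0 of 8 were 1.5-fold from control in any knockout with the values as deposited, where 13.7%, 12.5% and 23.9% of compared genes were in Dnm1l-/-, Fis1-/- and Mff-/-. Rescaled to the mean FPKM total, Nrf1 and Gabpa were, in Mff-/-, at -0.70 and -0.68 on the log2 scale, and Myc passed 1.5-fold upwards in Fis1-/-. Under that rescaling 27.7% of compared genes were past 1.5-fold in Mff-/- and 12.5% in Fis1-/-. Nrf1 and Gabpa, which encode activators of many nuclear genes for mitochondria, were at 23.8 and 23.0 FPKM in control and at 16.3 and 15.9 FPKM in Mff-/-, and Gabpa was at 29.2 and 28.3 FPKM in Dnm1l-/- and Fis1-/-. Tfam, the packaging factor of mitochondrial DNA, stayed between 20.4 and 23.1 FPKM. Esrra, an orphan nuclear receptor gene, measured 5.87 FPKM in control, then 4.07, 3.69 and 5.36 in Dnm1l-/-, Fis1-/- and Mff-/-. Myc was at 15.1, 22.3, 22.7 and 17.4 FPKM in the same order. Ppargc1a, a coactivator gene of oxidative tissues, was listed at 0.0223 FPKM or less in every library.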
